A study of Mus musculus with 10 samples.

Results

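Fatty acid elongases and desaturases lengthen fatty acids and place double bonds in them. The members were the Elovl genes other than Elovl6, the Fads genes and Scd2, and each was read from the probe set that the array's annotation gives to that gene alone. Of the 9 genes listed, 8 had such a probe set (Elovl1, Elovl2, Elovl3, Elovl5, Elovl7, Fads1, Fads2 and Fads3), among 22180 genes measured in all. The probe set of Scd2 also names a microRNA gene, Mir5114, so Scd2 was not analysed here.

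The livers of 10 mice were profiled, each on 1 array (Affymetrix Mouse Gene 2.0). The knockout group held 6 Vps33b fl/fl-AlfpCre mice, of which mice 1 to 3 were male and mice 4 to 6 female. The 4 control mice carried the same floxed Vps33b alleles without Cre according to the methods, although the labels call them wild type, and mice 1 and 2 were male and mice 3 and 4 female. Vps33b encodes a protein of vesicle trafficking, and AlfpCre deletes it in hepatocytes and cholangiocytes, so the other cells of the liver keep the gene. Every mouse ate chow with 0.5% cholic acid, a bile acid, starting at 10 weeks of age and for 2 weeks by the labels. The methods give a younger start and a longer feeding time for this diet. For the mice of the arrays, the paper gives a range of ages at sacrifice that includes the age by the labels. The mice had a C57BL/6J background.

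The arrays were alike, with medians over all probe sets of 4.71 to 4.82 on the log2 scale and correlations between pairs of arrays of 0.982 to 0.991. The targeted gene Vps33b read 9.12 to 9.15 in the control livers and 8.92 to 9.39 in the knockout livers (log2 difference 0.08, SE 0.095, limma adjusted p = 0.739). The sources used here do not give the exons that its probes read, and so the labels cannot be checked from it. The hepatocyte markers, among them Alb and Apob, read high on average in both groups (mean log2 level of 10 genes 12.48 to 12.69 in controls and 12.47 to 12.63 in knockouts). Ass1 among them read lower, with means of 6.27 in controls and 6.37 in knockouts. None of the 10 passed the limma test (1 at an unadjusted p under 0.05). Values are log2 expression after RMA, and a difference is knockout minus control from limma with sex as a term, called at an adjusted p under 0.05 over all genes. At that threshold 690 genes were higher in the knockout livers (3.11% of those tested) and 252 were lower (1.14%), while at an unadjusted p under 0.05 the shares were 9.65% and 7.67%.

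Fatty acids enter these pathways as CoA esters. An elongase joins 2 carbons from malonyl-CoA to the chain, and a reductase, a dehydratase and a second reductase complete the cycle in the endoplasmic reticulum. Elovl1, Elovl3 and Elovl7 act mainly on saturated and monounsaturated chains, whereas Elovl2 and Elovl5 act on polyunsaturated ones. Fads2, the delta-6 desaturase, and Fads1, the delta-5 desaturase, alternate with Elovl5 to turn the essential fatty acids of the diet into arachidonic and eicosapentaenoic acid, and Elovl2 carries the path on towards docosahexaenoic acid. Fads3 lies beside Fads1 and Fads2, and human FADS3 places a double bond in the long-chain base of sphingolipids. The liver is a main site of polyunsaturated fatty acid synthesis, and SREBP-1c and PPARalpha are known to raise transcription of Fads1 and Fads2.

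The promoters are shown for the members with a window in RefSeq whose values set the groups apart most clearly, so that the windows of genes that fell and of genes that rose can be compared. RefSeq on GRCm38.p6 gave windows for 6 of the 9 listed members, each from 250 bases before to 50 bases after a start site, 8 windows in all because Elovl1 and Elovl2 have a pair each. Fads1, Elovl3 and Scd2 have none in the table. The windows below lie at chr19:10101454-10101753 on the minus strand for Fads2, chr19:10041298-10041597 on the plus strand for Fads3, chr13:108214154-108214453 on the plus strand for Elovl7 and chr9:77917115-77917414 on the plus strand for Elovl5. Capitals mark matches, on either strand, to the motifs described after them.
Fads2: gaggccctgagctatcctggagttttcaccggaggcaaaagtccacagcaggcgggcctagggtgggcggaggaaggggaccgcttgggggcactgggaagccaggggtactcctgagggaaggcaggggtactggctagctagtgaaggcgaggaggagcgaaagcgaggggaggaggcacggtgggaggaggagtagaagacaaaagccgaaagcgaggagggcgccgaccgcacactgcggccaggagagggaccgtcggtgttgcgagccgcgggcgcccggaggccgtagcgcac
Fads3: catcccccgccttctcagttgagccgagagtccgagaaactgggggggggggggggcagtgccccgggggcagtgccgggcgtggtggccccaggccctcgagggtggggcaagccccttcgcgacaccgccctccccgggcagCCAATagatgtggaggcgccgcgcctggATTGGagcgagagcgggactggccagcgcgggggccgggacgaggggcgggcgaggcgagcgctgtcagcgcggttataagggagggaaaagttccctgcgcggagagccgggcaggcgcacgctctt
Elovl7: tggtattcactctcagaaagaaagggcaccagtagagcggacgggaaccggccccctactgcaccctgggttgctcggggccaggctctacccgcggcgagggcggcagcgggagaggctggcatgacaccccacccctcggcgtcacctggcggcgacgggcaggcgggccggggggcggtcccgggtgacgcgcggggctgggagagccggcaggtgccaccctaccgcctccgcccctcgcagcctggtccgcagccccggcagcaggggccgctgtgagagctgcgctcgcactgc
Elovl5: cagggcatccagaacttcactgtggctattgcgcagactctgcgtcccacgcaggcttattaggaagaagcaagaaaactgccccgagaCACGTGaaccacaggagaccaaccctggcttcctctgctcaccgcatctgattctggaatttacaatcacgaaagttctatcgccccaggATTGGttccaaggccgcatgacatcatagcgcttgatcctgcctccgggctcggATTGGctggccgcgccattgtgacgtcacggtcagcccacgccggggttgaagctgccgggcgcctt

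The motifs searched were the sterol regulatory element TCACNCCAC, the E-box CACGTG, the NF-Y box CCAAT and direct repeats of AGGTCA with a gap of 1 or of 4 bases, each on both strands and none overlapping another in these windows. Fads3 held an NF-Y box at -106 and another at -78 from the start site, and Elovl5 held an E-box at -161 and NF-Y boxes at -71 and -17. No motif matched in the windows of Fads2 and Elovl7. Over all 8 windows, 3 held an NF-Y box, 1 an E-box and 0 any of the others. Among 32851 windows of the same length in the table, an NF-Y box was in 37.4%, an E-box in 7.15%, the sterol regulatory element in 1.24%, and the direct repeats in 0.0396% and 0.0152%. A match is a run of letters and not a bound site.

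Of the 8 members, Elovl7 and Fads3 were higher in the knockout livers, Fads1 and Fads2 were lower, and 4 did not pass the test. The median difference over the 8 was -0.27 on the log2 scale, beside -0.01 over all genes, and 6 of the 8 differences were below 0. In Fads3 all knockouts exceeded the controls of the same sex, which held for 5.2% of all genes, and in Fads1, Fads2 and Elovl5 all knockouts were below the controls of the same sex, which held for 3.72% of all genes. RNA came from whole liver, in which fewer cells of a type and less RNA per cell cannot be told apart.

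**Figure D1:**
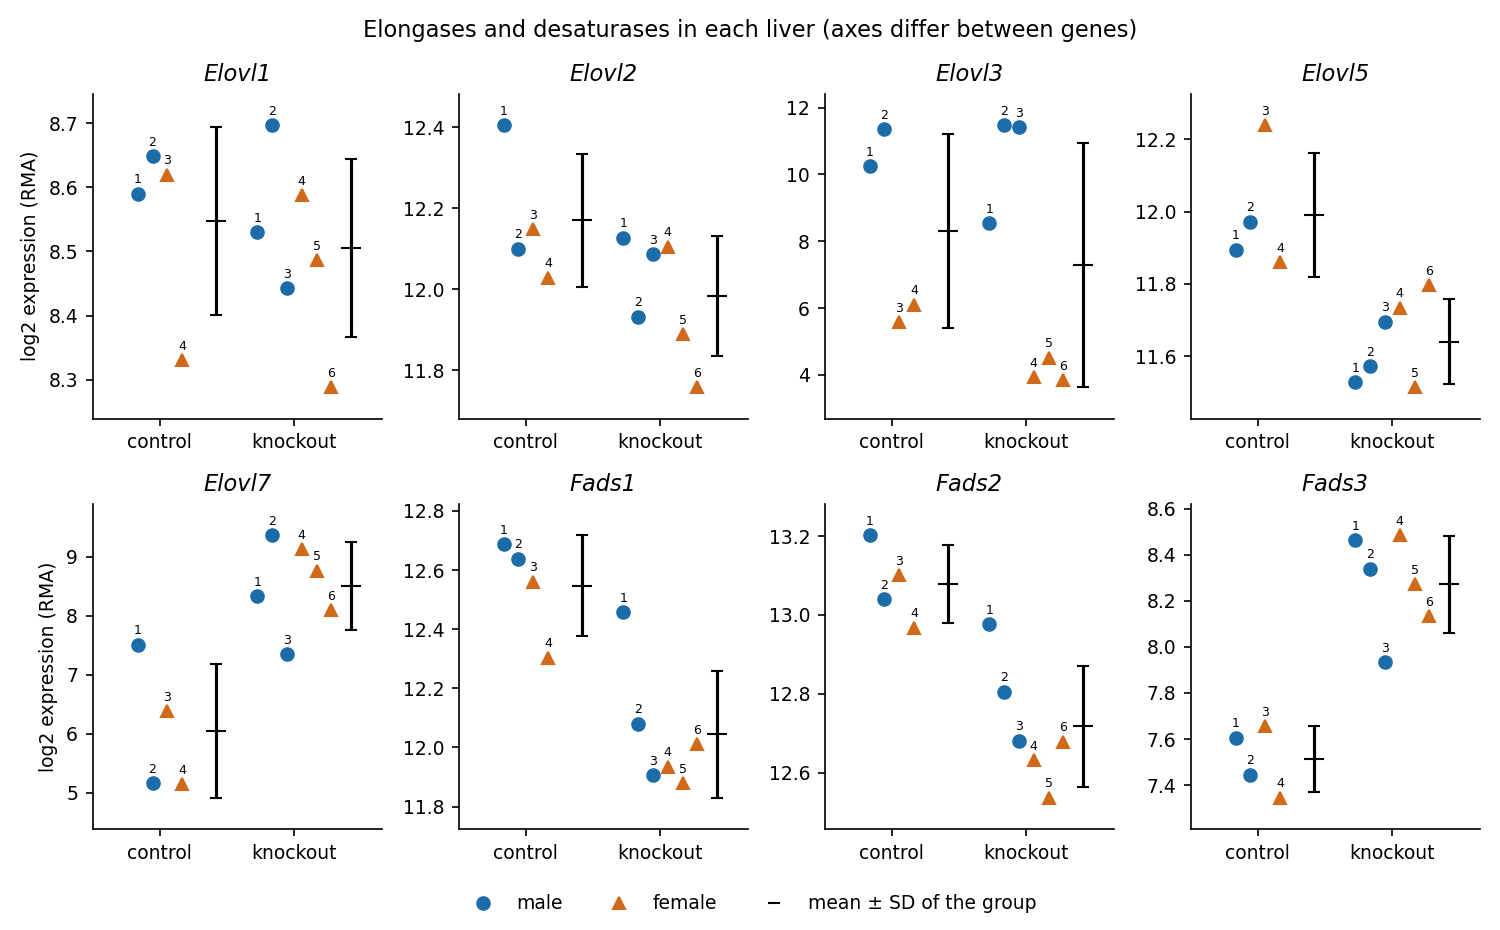
Log2 expression (RMA) of the 8 measured members in each mouse, with its replicate number, for 4 control and 6 knockout livers. Circles are males, triangles are females, and bars give the mean ± SD of each group. Fads3 separates the groups upwards (7.35 to 7.66 against 7.93 to 8.48), Elovl5 downwards (11.86 to 12.24 against 11.51 to 11.80), and Elovl3 splits by sex.

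The front-end desaturases Fads1 and Fads2 fell together. Fads1 read 12.69, 12.64, 12.56 and 12.30 in controls 1 to 4, against 12.46, 12.08, 11.91, 11.94, 11.88 and 12.01 in knockouts 1 to 6. Each knockout mouse was below the controls of its own sex, but male knockout 1 lay above female control 4. Fads1 was 12.55 ± 0.17 (SD, n = 4) in controls and 12.05 ± 0.21 (SD, n = 6) in knockouts, a difference of -0.50 (SE 0.11, 95% interval -0.73 to -0.27), or 0.706 of the control level (limma adjusted p = 0.0238). The call was lost without control 2 (adjusted p = 0.0783), control 3 (0.0751), knockout 2 (0.0523) or knockout 4 (0.0547).

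Fads2, which acts before Fads1, read 13.20, 13.04, 13.10 and 12.97 in the controls and 12.98, 12.81, 12.68, 12.63, 12.54 and 12.68 in the knockouts. The pattern over the mice was that of Fads1, with knockout 1 the highest of its group and level with control 4. The means were 13.08 ± 0.10 (SD, n = 4) and 12.72 ± 0.15 (SD, n = 6), a difference of -0.36 (SE 0.083, 95% interval -0.54 to -0.18), or 0.780 of the control level (limma adjusted p = 0.0337). Of the 4 calls it was the one lost most often. It was lost when any one mouse other than knockouts 1 and 6 was left out (adjusted p = 0.0565 to 0.106), and also without the sex term (0.0599).

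Fads3 moved the other way. It read 7.61, 7.44, 7.66 and 7.35 in the controls and 8.46, 8.34, 7.93, 8.48, 8.27 and 8.13 in the knockouts, so that the groups did not overlap in either sex. The means were 7.51 ± 0.14 (SD, n = 4) and 8.27 ± 0.21 (SD, n = 6), a difference of 0.76 (SE 0.12, 95% interval 0.50 to 1.02), or a 1.69-fold level (limma adjusted p = 0.00709). It was called under every alternative run, with adjusted p between 0.00273 and 0.0402.

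The 3 desaturase genes are neighbours on chromosome 19, and the genes around them did not pass the test. In the order of GRCm38.p6, the protein-coding genes run Fth1, Best1, Rab3il1, Fads3, Fads2, Fads1, Fen1, Tmem258 and Myrf. These neighbours were chosen after the values of the Fads genes had been seen. Rab3il1, next to Fads3, differed by 0.33 (SE 0.11, limma adjusted p = 0.138), and Fen1, which encodes a nuclease of DNA replication and lies next to Fads1, by 0.01 (SE 0.16, adjusted p = 0.985). Of the other neighbours, Tmem258 differed by -0.22 and Myrf by 0.12 (adjusted p = 0.442 and 0.499). Fth1, the heavy chain of ferritin, and Best1 differed by -0.01 and -0.04 (0.958 and 0.932).

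**Figure D2:**
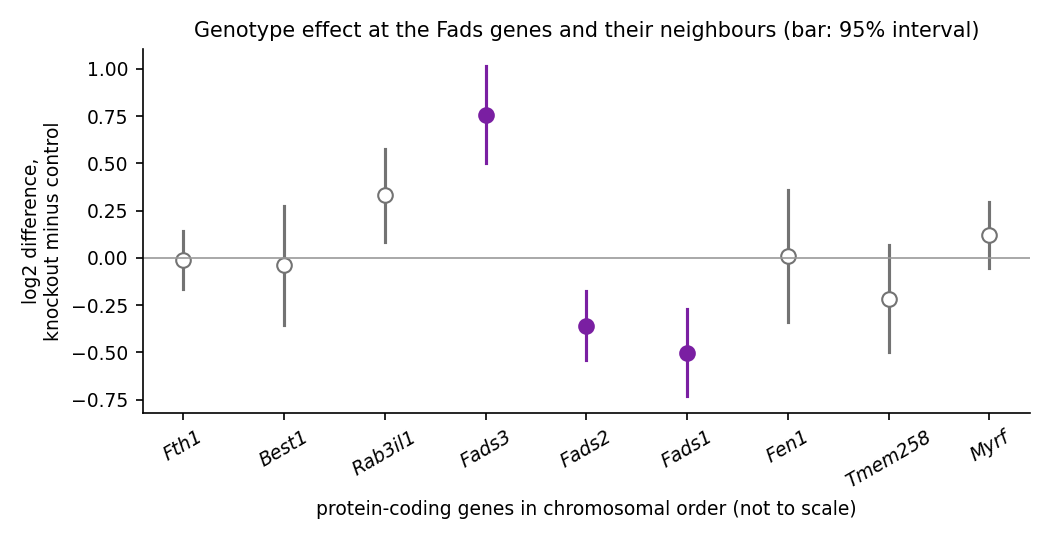
Log2 difference, knockout minus control (10 mice, limma with sex as a term), of 9 protein-coding genes in their order on the chromosome, not to scale, with 95% intervals. Filled purple points mark the Fads genes, all past the threshold. Fads3 lies at 0.76 and its neighbours Fads2 and Fads1 at -0.36 and -0.50, and the 6 open points did not pass the test.

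Elovl7, an elongase of saturated long chains, had the largest difference of the 8 members. It read 7.51, 5.16, 6.38 and 5.14 in controls 1 to 4, against 8.33, 9.37, 7.34, 9.13, 8.77 and 8.09 in knockouts 1 to 6. The groups did not overlap in females, and in males knockout 3 lay below control 1. The control mice spanned more than 2 log2 units. The means were 6.05 ± 1.14 (SD, n = 4) and 8.51 ± 0.74 (SD, n = 6), a difference of 2.46 (SE 0.49, 95% interval 1.38 to 3.53), or a 5.49-fold level (limma adjusted p = 0.0193). The call was lost without control 2 (adjusted p = 0.0835) or control 4 (0.0782), the controls with the lowest values.

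Elovl5, which elongates the product of Fads2, separated the groups without passing the test. It read 11.89, 11.97, 12.24 and 11.86 in the controls and 11.53, 11.57, 11.70, 11.73, 11.51 and 11.80 in the knockouts. All 6 knockout mice lay below all 4 controls, although knockout 6 and control 4 were close. Of all genes, 3.72% met the weaker rule that knockouts lie below controls of the same sex. The difference was -0.35 (SE 0.093, 95% interval -0.55 to -0.15), or 0.784 of the control level (limma adjusted p = 0.0587). The adjusted p ran from 0.0263 to 0.174 over the alternatives and was under the threshold when dim genes were left out (0.0369), with arrays centred on their median (0.0414), with an intensity trend (0.0263) and with array weights (0.0424).

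Elovl2 and Elovl1 gave the smallest differences. Elovl2, the elongase of the longest polyunsaturated chains, ranged from 12.03 to 12.40 in the controls and from 11.76 to 12.13 in the knockouts, with overlap in both sexes. Its difference was -0.19 (SE 0.093, 95% interval -0.39 to 0.02, limma adjusted p = 0.338). Elovl1, which makes the very long saturated chains used in ceramides, ranged from 8.33 to 8.65 in the controls and from 8.29 to 8.70 in the knockouts. Its difference was -0.04 (SE 0.091, 95% interval -0.24 to 0.16, adjusted p = 0.878), so that a change of the size seen in Fads1 or Elovl5 lies outside the interval.

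Elovl3 differed by sex and was not called for genotype. It is known as an elongase whose expression in mouse liver is higher in males. In males it read 10.25 and 11.35 in controls 1 and 2 and 8.54, 11.48 and 11.42 in knockouts 1, 2 and 3. In females it read 5.58 and 6.10 in controls 3 and 4 and 3.92, 4.51 and 3.85 in knockouts 4, 5 and 6. No male overlapped any female. In order, the group means were 4.10 ± 0.36 (SD, n = 3) in knockout females, 5.84 ± 0.37 (SD, n = 2) in control females, 10.48 ± 1.68 (SD, n = 3) in knockout males and 10.80 ± 0.78 (SD, n = 2) in control males. The values of the male groups overlapped, and those of the female groups did not.

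Elovl3 was the 1 member called for sex in the controls, in which 0.176% of all genes were called, and the 1 member called for sex in the knockouts, in which 0.185% were. The log2 difference, male minus female, was 4.95 (SE 0.80) in controls (limma adjusted p = 0.0446) and 6.38 (SE 0.65) in knockouts (adjusted p = 0.0014). In females, which lack them, 3 Y-linked genes read 3.38 to 4.51 with a median of 3.68, against 6.61 or more in males, and Elovl3 read within this range in knockouts 4 and 6 and at its upper edge in knockout 5. Differences that rest on the knockout females, the 6.38 among them, can therefore only be read as lower bounds in size. The call in controls, which rests on 2 mice of each sex, was lost without any one control (adjusted p = 0.127 to 0.288), without knockout 4, 5 or 6 (0.0761 to 0.087), with robust moderation (0.113) and with array weights (0.0681). The call in knockouts was kept under every alternative run. For the other 7 members the male minus female difference in controls ran from -0.12 (Elovl5) to 0.57 (Elovl7), and none passed the test (adjusted p = 0.653 to 0.978).

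Over both sexes the genotype difference of Elovl3 was -1.03 (SE 0.54, 95% interval -2.21 to 0.14, limma adjusted p = 0.361), and -0.66 without knockout 1. It was -0.32 (SE 0.73, adjusted p = 0.920) in males, where it ran from -0.87 without control 1 to 0.65 without knockout 1, and -1.75 (SE 0.73, adjusted p = 0.295) in females, where both controls lay above all 3 knockouts and the knockouts were at the level just given. The difference between the sexes was itself -1.43 (SE 1.03, 95% interval -3.70 to 0.84, adjusted p = 0.899). It rests on the same knockout females and ran from -2.40 without knockout 1 to -0.88 without control 1. Without knockout 1, the male with the low value, the difference in females passed the test (adjusted p = 0.0429).

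Effects of genotype were also taken within each sex, from 2 controls and 3 knockouts each. Within males 77 of all genes were called (0.347%) and within females 201 (0.906%), and 0 of the 8 members passed in either, with 5 in males and 6 in females at an unadjusted p under 0.05, where 11.2% and 14.7% of all genes fell. In males and in females the differences were -0.51 and -0.49 for Fads1, -0.30 and -0.42 for Fads2, 0.72 and 0.80 for Fads3, and -0.33 and -0.37 for Elovl5. For Elovl7 they were 2.01 (95% interval 0.47 to 3.56) and 2.90 (1.36 to 4.45), and in males 3.19 without control 1 and 0.84 without control 2. The difference of Elovl5 in females was -0.18 without control 3 and -0.56 without control 4. The interaction was called in 1 gene of the 22180 (0.00451%) and in 0 members (0 at an unadjusted p under 0.05, beside 6.14% of all genes), and the 95% interval of the difference between the sexes ran from -1.30 to 3.07 for Elovl7 and from -0.46 to 0.51 for Fads1.

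De novo synthesis supplies malonyl-CoA and the chains that the elongases lengthen. Of the 9 measured genes of de novo fatty acid synthesis and the delta-9 step, 4 fell and 0 rose (at an unadjusted p under 0.05, 6 were lower and 0 higher), with a median difference of -0.41 and 2 to 6 called lower with each mouse left out. Me1, which makes NADPH for synthesis, differed by -1.28 (SE 0.16, limma adjusted p = 0.00282) and Elovl6, which lengthens palmitate, by -1.01 (SE 0.16, adjusted p = 0.00794). Both kept the call with any one mouse left out. Acacb and Acaca, the carboxylases that make malonyl-CoA, differed by -1.40 (SE 0.28, adjusted p = 0.0181) and -0.41 (SE 0.098, 0.0365). The call of Acacb was lost without control 2 or 3 (0.0606 and 0.0594), and that of Acaca without any one mouse other than control 1 or knockout 2 (0.0594 to 0.136).

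The enzymes that complete the elongation cycle did not pass the test. Of 7 measured, 0 were called (at an unadjusted p under 0.05 in limma, 2 were higher and 3 lower), with a median of -0.15. The dehydratases Hacd3, Hacd1 and Hacd4 came nearest, at -0.30, -0.31 and 0.36 (adjusted p = 0.0675, 0.131 and 0.172), and Hacd4 was called without knockout 6 (0.0336). Cytochrome b5 and its reductases can pass electrons to the desaturases, though which of the 7 measured genes do so here was not tested. Among these, Cyb5b fell (difference -0.40, limma adjusted p = 0.0428), and Cyb5r1 and Cyb5r2 followed at 0.27 and 0.12 (0.463 and 0.468). Cyb5a and Cyb5r3 differed by -0.03 and 0.02 (0.874 and 0.953). The call of Cyb5b was lost without any one mouse other than control 1 (0.0524 to 0.161).

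**Figure D3:**
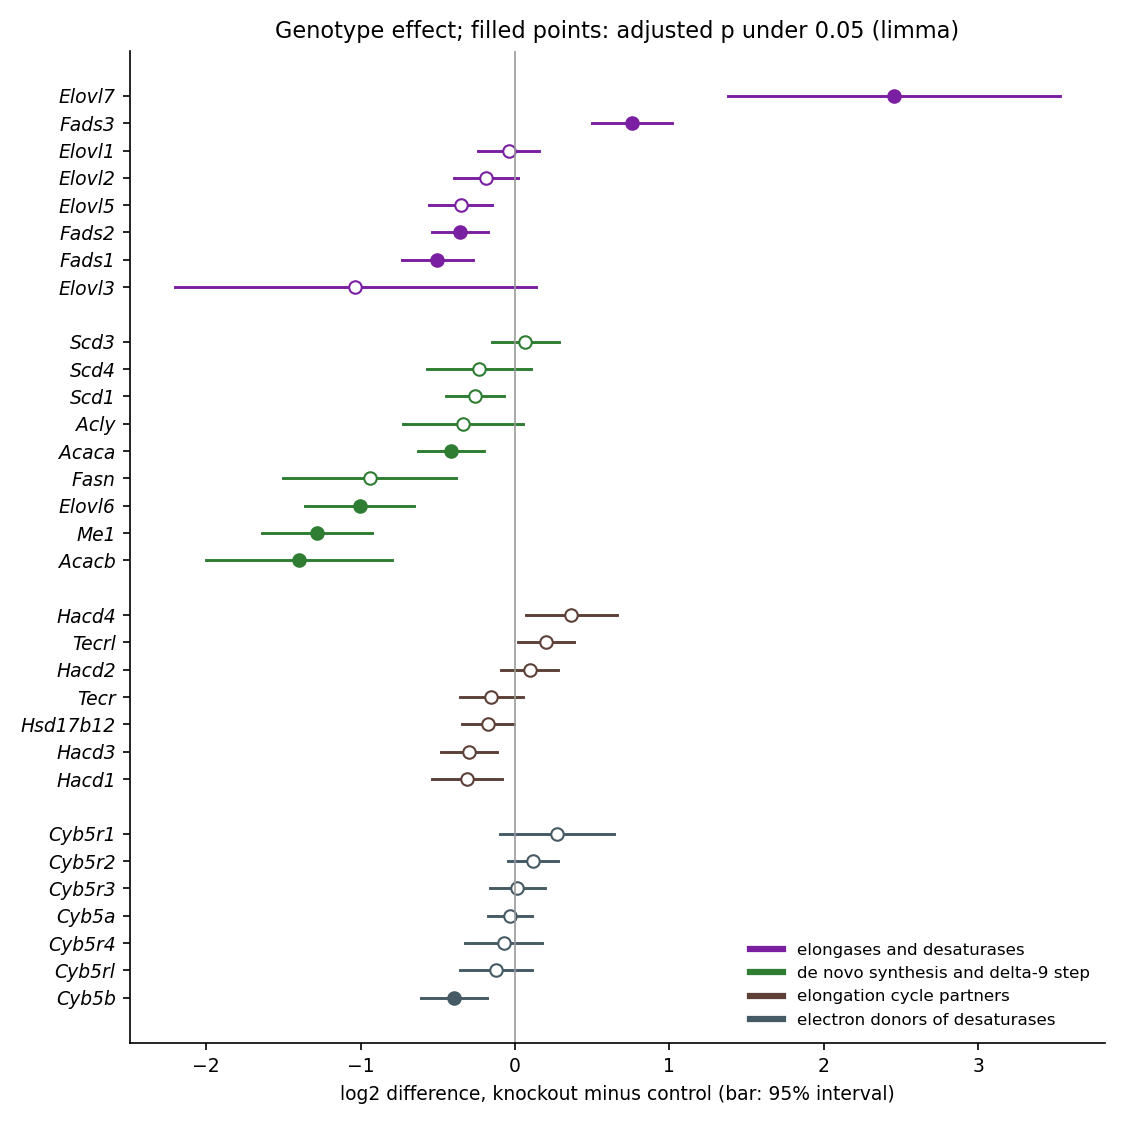
Log2 difference, knockout minus control (10 mice, limma with sex as a term), with 95% intervals, for the 8 members and for 3 lists of genes that work beside them. Filled points passed an adjusted p under 0.05. The members spread from -1.03 (Elovl3, not called) to 2.46 (Elovl7), and in the synthesis list the called genes all lie below 0.

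Among the 8 other elongases and desaturases, 4 of which are also in the synthesis list, Elovl6 fell and Degs2 rose. Degs2, which acts on dihydroceramide, differed by 0.37 (SE 0.09, limma adjusted p = 0.0428), a call lost without any one mouse other than control 1 (0.0536 to 0.160). Scd1, the main delta-9 desaturase of liver, differed by -0.26 (adjusted p = 0.128). Of 5 measured ceramide synthases, which use acyl chains of differing length, 0 were called (at an unadjusted p under 0.05 in limma, 1 was higher and 0 lower). The nearest were Cers5 at 0.33 (adjusted p = 0.181), Cers3 at -0.25 (0.547) and Cers6 at -0.21 (0.672).

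Of 7 measured acyl-CoA synthetases, which activate fatty acids, Acsl5 fell (difference -0.45, SE 0.11, limma adjusted p = 0.0423), a call lost without any one mouse other than control 1 (0.0543 to 0.159). Acsbg1 and Slc27a2 differed by -0.17 and -0.13 (0.273 and 0.383). Peroxisomes shorten very long chains, and 2 of 6 measured genes of that path fell. Acaa1b, a thiolase, differed by -0.76 (SE 0.14, adjusted p = 0.0142) and Abcd3, an importer of acyl-CoA, by -0.38 (SE 0.083, 0.0272), with Hsd17b4 at -0.21 (0.170). The call of Acaa1b was lost without control 2 or 4 (0.0654 and 0.0637), and that of Abcd3 without control 2 or 4 or knockout 2, 4 or 5 (0.0503 to 0.107).

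Of 12 measured regulators of lipid synthesis, Ppara fell and 11 did not pass the test (at an unadjusted p under 0.05, 5 were lower and 0 higher). Ppara, a nuclear receptor for fatty acids, differed by -0.58 (SE 0.12, limma adjusted p = 0.022), and its call was lost without control 2 or 4 (0.0825 and 0.0861). Insig1, which holds SREBP proteins in the endoplasmic reticulum, and Mlxipl, the carbohydrate response factor, differed by -0.83 and -0.32 (0.0675 and 0.138). Srebf1, the gene of SREBP-1c, differed by -1.05 with a large spread (SE 0.42, adjusted p = 0.219). Without control 1 it was called at -1.61 (0.011), as were Insig1 at -1.12 (0.0043) and Mlxipl at -0.42 (0.0493), and with each mouse left out 0 to 4 of the regulators were called lower.

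Lists of sex-biased liver genes were set beside Elovl3. Of 12 measured male-biased genes, 3 were called higher in male controls, and by genotype Cyp4a12b (difference -0.81, limma adjusted p = 0.0219) and Ces2e (-0.45, 0.0428) fell, with Cyp7b1 at -0.77 (0.0675). Of 12 measured female-biased genes, 5 were called higher in female controls, and by genotype Cyp17a1 (-1.58, 0.0219) and Acot3 (-0.87, 0.0137) fell, with A1bg at -1.30 (0.0547). The median genotype difference was -0.46 in the male-biased list and -1.07 in the female-biased list. The calls were lost without control 2 for Acot3 (0.0627), without control 2 or 3 or knockout 4 for Cyp17a1 (0.053 to 0.0891), without control 2, 3 or 4 or knockout 4 for Cyp4a12b (0.0516 to 0.0891), and without any one mouse other than control 1 for Ces2e (0.0652 to 0.105). Without the sex term, Acot3, Cyp17a1 and Cyp4a12b were not called (0.528, 0.226 and 0.876). Without control 1, A1bg (0.0256) and Cyp7b1 (0.034) were called, and Cyp7b1 also without knockout 3 (0.0365). With each mouse left out, 0 to 3 of the male-biased and 0 to 5 of the female-biased genes were called lower.

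Within females, 4 of the 12 female-biased genes were called lower and 0 higher, and within males 0 were called. In males, however, Cyp3a16 (means 3.16 in controls and 3.18 in knockouts) and Hao2 (4.06 and 3.98) read no higher than absent Y-linked genes, at 3.38 to 4.51. A fall of these genes could not show there, and A1bg had little room for one (4.81 and 4.42). The cytochrome P450 gene Cyp3a16 differed by -4.60 (SE 0.23, limma adjusted p = 1.53e-05) and was also the 1 gene called for the interaction (adjusted p = 0.000526). The sulfotransferase gene Sult2a1 differed by -3.13 (SE 0.30, 0.00585), A1bg by -2.21 (SE 0.31, 0.0143) and Cyp3a44 by -2.03 (SE 0.35, 0.0335). Of the male-biased genes, Mup20, a major urinary protein, was called higher in females (0.71, SE 0.14, 0.0459). With single mice left out, Cyp3a16 and Sult2a1 kept the call, A1bg lost it without control 3 or knockout 4 (0.0669 and 0.0595), Cyp3a44 without control 4 or knockout 4, 5 or 6 (0.0709 to 0.147), and Mup20 without any one mouse other than control 1 or 2 (0.0528 to 0.267). The mean of Cyp3a16 in knockout females was 3.27, below the Y-linked genes, so its difference in females too is a lower bound in size. Its interaction sets that difference against males in which no fall could show, so it cannot tell whether the effect differs between the sexes. Some female-biased genes had the larger difference in males, though none was called there. In males and in females these were -4.45 and -0.29 for Cyp2b9 and -1.26 and -0.24 for Cyp2a4. They were -1.89 and -1.28 for Cyp17a1 and -1.15 and -0.59 for Acot3 (limma adjusted p = 0.0525 in males for Acot3). Cyp3a44 and Cux2 went the other way (-0.12 and -2.03, and -0.15 and -0.48).

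Markers of other cells rose with Elovl7 and Fads3. Of 7 measured bile duct markers 5 were higher, among them Epcam and Krt19, and their mean log2 level was 6.09 to 6.37 in the controls and 6.84 to 7.18 in the knockouts. Of 12 macrophage markers 5 were higher, among them C1qa and Lyz2, with a mean level of 8.63 to 9.17 in the controls and 9.30 to 9.80 in the knockouts. Neither list overlapped between the groups. The bile duct count was 4 to 6 with each mouse left out, but the macrophage count ran from 0, without control 2 or 4, to 7. Of the stellate cell and fibroblast markers 3 of 10 were higher (7.63 to 8.06 against 7.99 to 8.56), of the endothelial markers 1 of 8 (8.25 to 8.73 against 8.57 to 8.81), of the neutrophil markers 1 of 7 (4.52 to 4.76 against 4.71 to 5.12) and of the lymphocyte markers 0 of 8 (5.07 to 5.44 against 5.17 to 5.41), in which 1 was lower and 0 higher when the p was not adjusted. The stellate count was 0 to 4 with each mouse left out, with 0 without control 2 or 4, the endothelial count 0 to 2 and the neutrophil count 0 to 1.

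The marker levels and both genes were also compared within the groups. Controls 1 and 3 had the highest macrophage levels of their group (both 9.17), and also the highest Elovl7 and Fads3. Knockouts 3 and 6 had the lowest macrophage levels of theirs (both 9.30), and also the lowest Elovl7 (7.34 and 8.09) and Fads3 (7.93 and 8.13). Controls 1 and 3 also had the highest bile duct levels (6.37 and 6.36) and lymphocyte levels (5.44 and 5.40) of the controls. The bile duct level was lowest in control 4 (6.09) and in knockout 3 (6.84), but knockout 6 had the second highest of the knockouts (7.11). The lymphocyte level was likewise lowest of the knockouts in knockout 3 (5.17) and highest in knockout 6 (5.41). The part of these cells in the rise of Elovl7 and Fads3 was not tested.

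**Figure D4:**
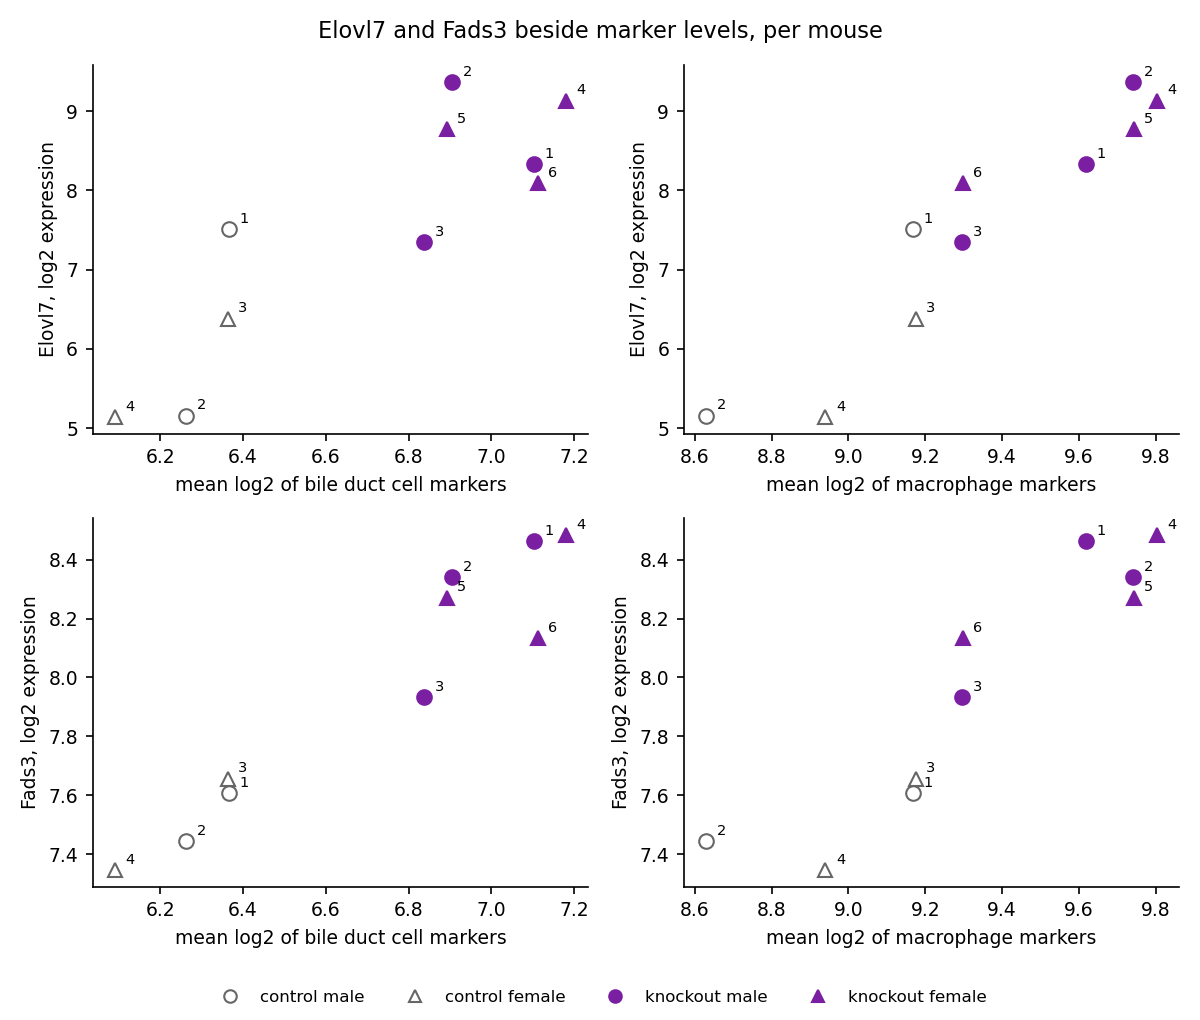
Log2 expression of Elovl7 (top) and Fads3 (bottom) in each mouse against the mean log2 level of 7 bile duct markers (left) and 12 macrophage markers (right). Open symbols are controls and filled symbols knockouts, circles are males and triangles females, with replicate numbers beside them. Knockouts 3 and 6, at a macrophage level of 9.30, have the lowest Elovl7 and Fads3 of the knockout mice.

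For each called member, the genes most like it over the 10 mice were sought by Pearson's r among 9988 genes with a mean log2 value of at least 6, as a description in which the genotype and sex differences take part. Fads1 and Fads2 were each other's closest gene (r = 0.969, Spearman's rho = 0.952), and r was 0.911 after each mouse's value was taken from the mean of its genotype and sex. Taken that way, Fads3 also followed Fads1 (r = 0.714), Fads2 (0.717) and Elovl7 (0.739), although over the 10 mice it ran against Fads1 and Fads2 (-0.609 and -0.646). Such values were not particular to the desaturases. Within the groups Fads3 followed Elovl1 as closely (r = 0.726), and Elovl3 ran against Fads1 and Fads2 (-0.89 and -0.875). All of them rest on few mice per group. Next came Hspd1, a mitochondrial chaperone, for Fads1 (r = 0.966, rho = 0.939) and Psmd2, a proteasome subunit, for Fads2 (0.945, 0.927). For Elovl7 the closest were Ifngr1, a chain of the interferon gamma receptor (r = 0.985, rho = 0.976), and Anxa2 (0.98, 0.964). For Fads3 they were Niban1 (r = 0.974, rho = 0.952) and Cybb, a subunit of the phagocyte oxidase (0.971, 0.952). For Elovl3 they were Ugt2b1, a glucuronosyltransferase (r = 0.972, rho = 0.867), and Phf5a (0.958, 0.964).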

How the data were processed

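Liver RNA of 10 mice was hybridised to 1 array each. The deposited values are log2 expression per probe set, which the authors made with RMA in the oligo package, that is background correction, quantile normalisation and summary over probes, with versions not given in the sources used here. Of 41345 probe sets, 23521 name 1 gene, 1820 name several and were left out, and 16004 are not listed in the annotation. For the 1082 genes with several, the probe set with the highest mean was used. Each of the 8 measured members has 1 probe set of its own.

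A linear model of genotype and sex was fitted to each of 22180 genes with limma 3.58.1 in R 4.3.3, with eBayes moderation, and p-values were adjusted over all of them by Benjamini and Hochberg. A second fit with 4 groups gave the sex effects, the genotype effect in each sex and the interaction. Tests are two-sided. The number of arrays limits the precision. Members and lists were chosen with earlier results of these data known. Named were all members, any list gene past the threshold, 3 genes of each pathway list by smallest adjusted p and the 2 genes most like each called member. Markers, neighbours, Scd1, Srebf1, Fasn, Cyb5a, Cyb5r3, Hao2, Cyp2b9, Cyp2a4, Cux2 and sex-biased genes called within females are named besides. Alternatives were model terms, probe set choice, a filter on dim genes (log2 above 5 on at least 4 arrays), scaling, moderation, array weights, a replicate block and leaving out each mouse. The fit was tested on simulated data.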

Additional observations from a re-analysis of the deposited data

Results flagged for a closer look

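Fads1 in knockout mouse 1, a male, read 12.46 on the log2 scale, apart from the other 5 knockout mice, which read 11.88 to 12.08. The gap to the next mouse was a larger share of the group's range than Dixon's test allows at 95%. It was the 1 value so marked among 16 groups tested, and chance marks about 1 group in 20 if a group's values are normal. Each group held both sexes, so a difference by sex can take part in the gap. Fads1 averaged 12.15 in knockout males and 11.94 in knockout females. Knockout mouse 1 also had the highest Fads2 of the knockouts (12.98) and the lowest Elovl3 of the males (8.54). Without it, Fads1 and Fads2 both kept their call.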

How the results depend on the processing

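No member changed direction in a called result under any alternative run. Of the 4 called members, Fads3 kept its call under all 21 alternatives, Elovl7 under 18, Fads1 under 16 and Fads2 under 10, beside which Elovl5 was gained under 4. With all 41345 probe sets in the fit, which adds tests and leaves the members' own values as they are, the adjusted p was 0.0621 for Elovl7, 0.0671 for Fads1 and 0.0843 for Fads2, and quantile normalisation over genes gave 0.0536 for Fads2. The number of members higher was 2 and ran from 1 to 2 with each mouse left out. The number lower was 2, fell to 1 without the sex term and with quantile normalisation, and ran from 0 to 2 with each mouse left out. Under the 4 alternatives that gained Elovl5 it rose by that gene. Over all genes, the 690 higher became 233 to 825 with each mouse left out, and the 252 lower became 47 to 449, with the fewest in both directions without control 2. Without the sex term 165 genes were lower, and with array weights 499. The count of 1 member for sex in controls was 0 with robust moderation and with array weights, and 0 to 1 with each mouse left out. The count of 0 members for genotype in females was 1 with the filter on dim genes and with an intensity trend, 2 with array weights, and 0 to 1 with each mouse left out. In females Fads3 passed with the filter (adjusted p = 0.0474), the trend (0.0475), the weights (0.0258) and without knockout 3 (0.0429), and Elovl7 with the weights (0.03) and without control 1 or 2 (0.0404). Among the list genes, Cyb5b lost its call without the sex term (0.0765), Acsl5, Degs2 and Ces2e lost theirs under other terms, scalings or moderation (0.0518 to 0.0684), and Hacd3, Hacd4, Scd1, Fasn, Insig1, Srebf1, Mlxipl, A1bg and Cyp7b1 gained one, 6 of them without control 1 (0.0043 to 0.0493 over all). Repeats for the sex-biased genes within females were chosen after seeing the data, and there Mup20 also lost its call with arrays centred on their median (0.0632). The cause of these shifts was not tested.

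The replicate numbers run over both sexes, and number 3 is a female control and a male knockout. The correlation of deviations between mice of the same number was 0.141, -0.08, -0.12 and -0.04, and 1 of 4 controls matched its own number best. With the replicate block as a random term, 656 genes were higher and 239 lower, and no member's call changed. Other probe sets of a member gave no values, since each member has 1. Groups of 2 or 3 mice within a sex limit what could be called there, and the depth of an array is set by its probes.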
